A study of Drosophila melanogaster with 12 samples.

Results

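Aminoacyl-tRNA synthetases are the enzymes that attach each amino acid to its tRNA, so that every codon read by a ribosome is answered by the right residue. An animal cell encodes most of them in separate genes for the cytosol and for the mitochondrion, and both sets are made from nuclear genes. They fall into class I and class II, unrelated protein folds, and some cytosolic members sit in a multisynthetase complex in mammals. Their transcripts were followed here in ML-DmBG3 (BG3) cells, a Drosophila line derived from the central nervous system, after RNAi against Rad21, a subunit of the cohesin ring, or Nipped-B, the factor that loads cohesin onto chromosomes.

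The synthetases were taken as the probe sets that name 1 gene whose current symbol is an amino acid code followed by RS, with -m for the mitochondrial enzymes. This gave 32 of the 18769 probe sets on the array that are no controls. They stand for 30 of the 33 genes whose symbols fit, and AlaRS-m, AspRS and MetRS were not analysed here. Of the 32, 18 measured 16 cytosolic genes, with 3 probe sets for TrpRS, and 14 measured 14 mitochondrial genes. Cytosolic here means a symbol without -m, and whether such a gene also serves the mitochondrion was not examined. GluProRS is a single protein that charges both glutamate and proline tRNAs. The symbols leave out alpha-PheRS and beta-PheRS, the subunits of the cytosolic phenylalanine enzyme, which are described with the other tRNA genes. The probe sets of IleRS, ValRS and ThrRS are of a type that may also match other transcripts.

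RNA of BG3 cells was measured on 12 arrays, 4 each after mock, Rad21 and Nipped-B RNAi. Every treatment had 2 arrays of cells taken at day 3 (replicates 1 and 2), 1 of cells from day 4 (replicate 3) and 1 from day 6 (replicate 4). All cells were grown with insulin and went through the same change of medium. Mock cells received 0 µg of dsRNA, and knockdown cells 40 µg where harvest was at day 3 but 10 µg where it came later, as equal parts of 2 dsRNAs per target. The presence of dsRNA therefore cannot be told apart from the knockdown, nor the amount of dsRNA from the day. The probe set of Nipped-B lay at background on every array, between log2 2.27 and 2.29, and Rad21 (vtd) was not analysed here, so the arrays give no measure of either knockdown. Values are log2 expression, on which a difference of -1 is a fall to 1 part in 2.

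The arrays resembled each other closely, with correlations across probe sets between 0.991 and 0.999, and their number limits the precision. Tests were limited to probe sets at or above log2 4 on 2 arrays or more. This kept 7350 probe sets and all 32 synthetase probe sets, 31 of them at or above log2 4 on all 12 arrays. The exception was the dimmest of the TrpRS probe sets, which reached it on 9. Neuronal elav, glial repo, nrv2 and moody, and srp, a GATA factor of haemocytes, were at or above log2 4 on every array. The other neuronal markers nSyb, brp and fne and the neuroblast markers dpn, wor, ase and pros were under it on every array, as were Hml and NimC1 of haemocytes, gcm of glia and the muscle and germline markers.

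Rad21 RNAi lowered the transcripts of 26 of the 32 synthetase probe sets and raised 0. All 18 cytosolic probe sets and 8 of the 14 mitochondrial ones fell, where 24.1% of all tested probe sets fell and 27.3% rose. The median difference from mock was -0.69 for the cytosolic probe sets, or 62.0% of the mock level, and -0.27 for the mitochondrial ones, or 82.9%. Over all tested probe sets the median was +0.04. Nipped-B RNAi lowered 25 and raised 0, which were all 18 cytosolic and 7 of the 14 mitochondrial probe sets, beside 19.9% lower and 24.4% higher among all tested. Its medians were -0.59 (66.4% of mock) for the cytosolic and -0.21 (86.4%) for the mitochondrial probe sets, and +0.05 over all tested. Each contrast set 4 arrays against 4 in limma, averaged over day 3 and days 4 and 6, and a probe set was called at a Benjamini-Hochberg adjusted p of at most 0.1 over all tested probe sets. At an unadjusted p under 0.05 the limma counts were 26 and 25 lower and 0 higher. Both contrasts use the same 4 mock arrays, so they are not independent of each other. In bulk RNA, fewer cells of a type and less RNA per cell cannot be told apart.

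**Figure D1:**
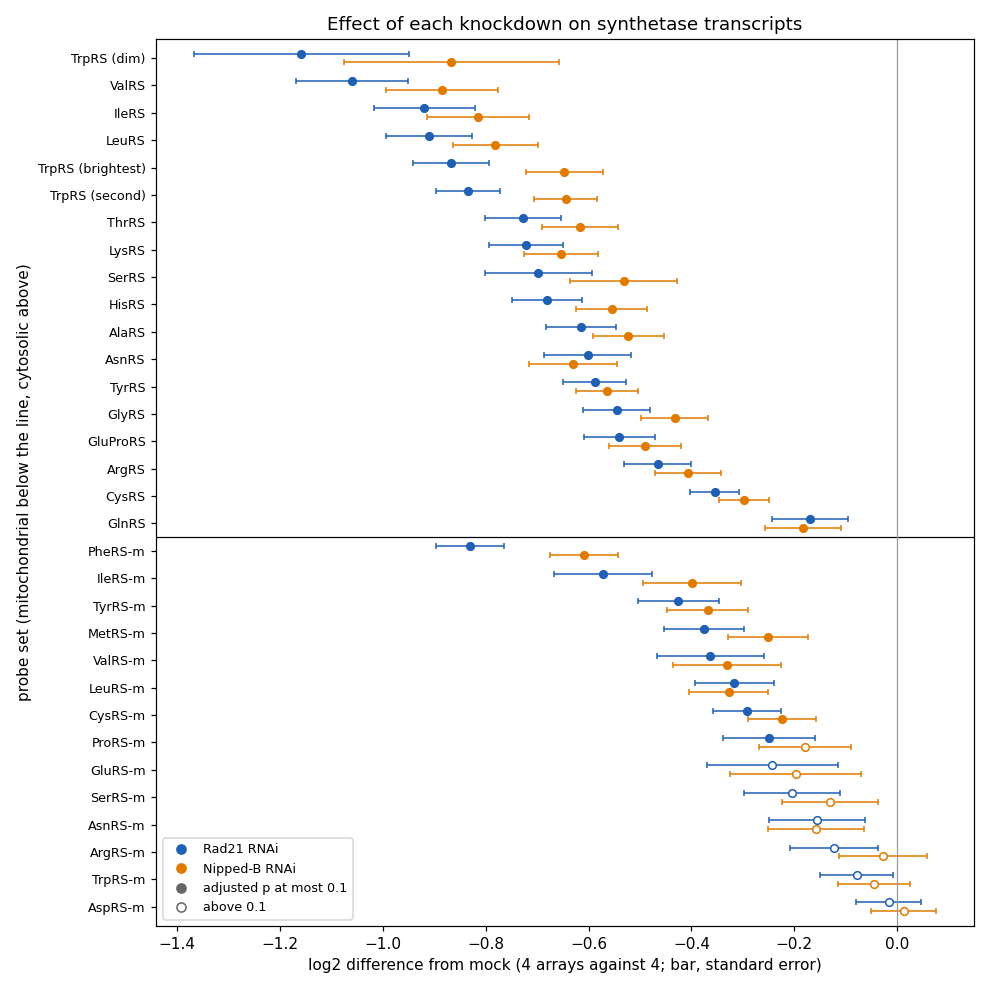
Log2 difference from mock (horizontal axis) with its standard error for the 32 synthetase probe sets after Rad21 RNAi (blue) and Nipped-B RNAi (orange). Filled points passed an adjusted p of at most 0.1; all 18 cytosolic points are filled for both knockdowns, and 8 and 7 of the 14 mitochondrial ones.

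ValRS, which charges valine tRNA, was at 11.29, 11.01, 11.88 and 11.70 in mock replicates 1 to 4. It was at 10.11, 10.08, 10.62 and 10.83 after Rad21 RNAi. After Nipped-B RNAi it was at 10.58, 10.32, 10.90 and 10.53. Every knockdown array lay below every mock array. The difference from mock was -1.06 (SE 0.11, adjusted p = 0.000157) with Rad21 RNAi and -0.89 (SE 0.11, adjusted p = 0.000589) with Nipped-B RNAi.

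IleRS, the isoleucine enzyme, read 11.17, 11.13, 11.46 and 11.17 in mock cells. After Rad21 RNAi it read 10.14, 10.02, 10.41 and 10.69, and after Nipped-B RNAi 10.58, 10.37, 10.24 and 10.47. The mock and knockdown arrays did not overlap. The falls were -0.92 (SE 0.10) and -0.81 (SE 0.10), to 52.9% and 56.9% of mock. LeuRS, the leucine enzyme, was at 10.54, 10.35, 10.89 and 10.67 in mock cells. It was at 9.57, 9.43, 9.86 and 9.95 after Rad21 RNAi and at 9.94, 9.74, 9.78 and 9.87 after Nipped-B RNAi. Here too the groups did not overlap, and LeuRS fell to 53.2% (adjusted p = 9.34e-05) and 58.2% (adjusted p = 0.00032) of mock.

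TrpRS, the tryptophan enzyme, was measured 3 times over. On its brightest probe set, the one of highest mean, the mock arrays gave 11.28, 11.39, 12.13 and 12.29. The Rad21 RNAi arrays gave 10.70, 10.72, 11.02 and 11.18 and the Nipped-B RNAi arrays 10.99, 10.91, 11.43 and 11.17. All Rad21 RNAi arrays were below all mock arrays, while with Nipped-B RNAi the day 4 array lay above both day 3 mock arrays. On the second probe set the mock arrays gave 10.73, 10.69, 11.45 and 11.64. The knockdown arrays gave 10.14, 10.10, 10.42 and 10.50 for Rad21 and 10.33, 10.26, 10.74 and 10.59 for Nipped-B. The pattern was that of the first probe set, with no overlap for Rad21 RNAi and the day 4 Nipped-B RNAi array above day 3 mock.

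The dim TrpRS probe set was near the limit of log2 4, with 4.67, 4.43, 6.25 and 5.86 in mock cells. It gave 3.92, 3.54, 4.48 and 4.64 after Rad21 RNAi and 4.37, 3.68, 5.16 and 4.53 after Nipped-B RNAi. Its groups overlapped, and its differences of -1.16 (SE 0.21) and -0.87 (SE 0.21) had the widest errors of the 32. Both brighter probe sets fell by less, by 0.87 and 0.83 on the log2 scale with Rad21 RNAi and by 0.65 and 0.64 with Nipped-B RNAi. All 3 were called in both contrasts, and the call on the dim one with Nipped-B RNAi was lost (adjusted p = 0.197) in a fit without the time class.

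LysRS, a class II enzyme whose human counterpart serves both the cytosol and the mitochondrion, showed a narrow spread within each treatment. It was at 10.90, 10.87, 11.11 and 10.89 in mock cells. It was at 10.25, 10.15, 10.25 and 10.24 after Rad21 RNAi and at 10.41, 10.28, 10.33 and 10.14 after Nipped-B RNAi. No knockdown array came within the mock range, and the falls were -0.72 (SE 0.07, adjusted p = 0.000138) and -0.65 (SE 0.07, adjusted p = 0.000365).

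ThrRS, AsnRS and SerRS, class II enzymes for threonine, asparagine and serine, also fell with both knockdowns, and their levels moved with the day as well. ThrRS was at 13.17, 12.99, 13.62 and 13.53 in mock cells, at 12.36, 12.22, 12.83 and 13.00 after Rad21 RNAi and at 12.68, 12.42, 12.88 and 12.87 after Nipped-B RNAi. AsnRS was at 12.18, 12.10, 12.68 and 12.33 in mock cells, at 11.39, 11.37, 11.98 and 12.15 after Rad21 RNAi and at 11.65, 11.44, 11.87 and 11.81 after Nipped-B RNAi. For both genes the day 6 Rad21 RNAi array reached above the lowest mock array, and the Nipped-B RNAi arrays did not. SerRS was at 12.41, 12.21, 12.94 and 12.75 in mock cells, at 11.61, 11.61, 12.12 and 12.18 after Rad21 RNAi and at 12.04, 11.71, 12.40 and 12.03 after Nipped-B RNAi. For SerRS only the day 4 Nipped-B RNAi array overlapped with mock. The differences for ThrRS were -0.73 and -0.62, those for AsnRS -0.60 and -0.63, and those for SerRS -0.70 and -0.53.

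GluProRS, the fused enzyme, was at 11.65, 11.70, 11.86 and 11.54 in mock cells. It was at 11.22, 11.13, 11.14 and 11.11 after Rad21 RNAi and at 11.38, 11.33, 11.03 and 11.05 after Nipped-B RNAi. The groups did not overlap, and it fell to 68.8% and 71.2% of mock. The other cytosolic enzymes with falls of this size were HisRS (-0.68 and -0.56), AlaRS (-0.62 and -0.52), TyrRS (-0.59 and -0.56), GlyRS (-0.55 and -0.43), ArgRS (-0.47 and -0.41) and CysRS (-0.36 and -0.30), with the Rad21 value first. None of these 6 had a knockdown array within its mock range.

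GlnRS, the glutamine enzyme, had the smallest cytosolic differences. It was at 10.62, 10.57, 10.55 and 10.23 in mock cells. It was at 10.32, 10.30, 10.40 and 10.27 after Rad21 RNAi and at 10.34, 10.34, 10.27 and 10.30 after Nipped-B RNAi. Mock replicate 4, at day 6, lay below all 8 knockdown arrays, and the other 3 mock arrays lay above them all. The differences of -0.17 (SE 0.07, adjusted p = 0.0945) and -0.18 (SE 0.07, adjusted p = 0.0842) passed the threshold narrowly. Leaving out any 1 array other than mock replicate 4 ended both calls, with adjusted p between 0.101 and 0.249 for Rad21 RNAi and between 0.101 and 0.19 for Nipped-B RNAi.

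**Figure D2:**
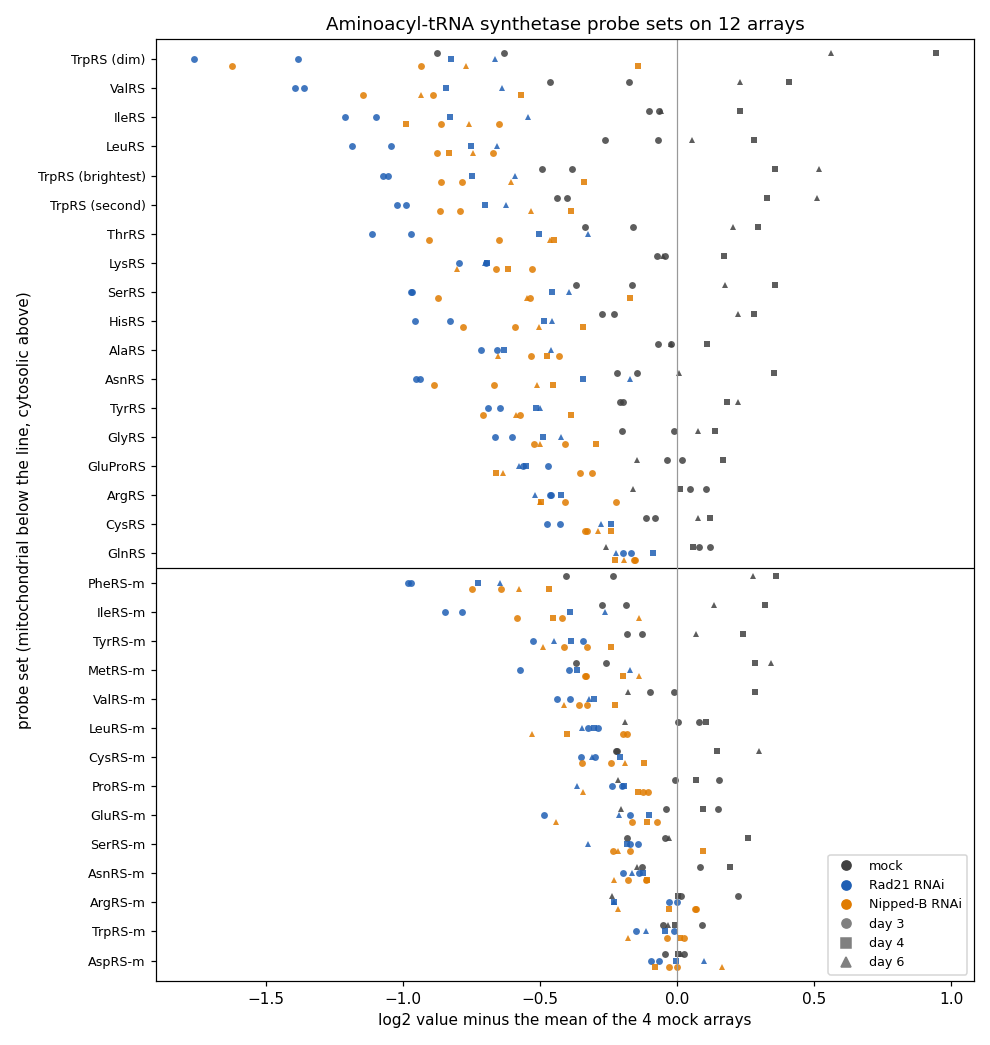
Log2 value of each synthetase probe set on each of the 12 arrays minus the mean of its 4 mock arrays (horizontal axis), by treatment (colour) and day (symbol), with cytosolic probe sets above the line. ValRS, IleRS, LeuRS and LysRS have all 8 knockdown arrays left of all 4 mock arrays, while AspRS-m and TrpRS-m at the bottom mix all 3 treatments.

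Among the mitochondrial enzymes PheRS-m, which charges phenylalanine tRNA, had the largest fall. It was at 9.25, 9.08, 9.85 and 9.76 in mock cells, at 8.51, 8.51, 8.76 and 8.84 after Rad21 RNAi and at 8.84, 8.74, 9.02 and 8.91 after Nipped-B RNAi. The arrays did not overlap with mock, and PheRS-m fell to 56.2% (adjusted p = 5.51e-05) and 65.6% (adjusted p = 0.000352). IleRS-m was at 7.14, 7.22, 7.73 and 7.55 in mock cells, at 6.56, 6.63, 7.02 and 7.15 after Rad21 RNAi and at 6.99, 6.83, 6.96 and 7.27 after Nipped-B RNAi. Its differences were -0.57 (SE 0.10) and -0.40 (SE 0.10), with the day 6 array of each knockdown above the lowest mock array.

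ValRS-m was at 7.59, 7.50, 7.88 and 7.42 in mock cells, at 7.16, 7.20, 7.29 and 7.27 after Rad21 RNAi and at 7.27, 7.24, 7.37 and 7.18 after Nipped-B RNAi, without overlap. LeuRS-m was at 8.87, 8.79, 8.90 and 8.60 in mock cells, at 8.50, 8.46, 8.49 and 8.44 after Rad21 RNAi and at 8.61, 8.59, 8.39 and 8.26 after Nipped-B RNAi. Its first Nipped-B RNAi array was above the day 6 mock array and no Rad21 RNAi array was. ValRS-m fell by 0.36 and 0.33 and LeuRS-m by 0.32 and 0.33 on the log2 scale. The other mitochondrial enzymes called with both knockdowns were TyrRS-m (-0.43 and -0.37), MetRS-m (-0.38 and -0.25) and CysRS-m (-0.29 and -0.22). In the Nipped-B contrast the call on ValRS-m was lost without mock replicate 1 (adjusted p = 0.106) and that on MetRS-m without mock replicate 2 (adjusted p = 0.103).

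ProRS-m was called with Rad21 RNAi alone, at 8.19, 8.35, 8.27 and 7.98 in mock cells, 8.00, 7.96, 8.01 and 7.83 after Rad21 RNAi and 8.09, 8.08, 8.06 and 7.86 after Nipped-B RNAi. Its differences were -0.25 (adjusted p = 0.0512) and -0.18 (adjusted p = 0.156), and with the replicate number as a block the second also passed (adjusted p = 0.0483), as it did without mock replicate 4 (0.0539) or Nipped-B RNAi replicate 3 (0.0967). Arrays of both knockdowns lay above its day 6 mock array. The first call was lost without any 1 of mock replicates 2 and 3 and Rad21 RNAi replicates 1, 2 and 4, with adjusted p from 0.109 to 0.157. SerRS-m was at 9.31, 9.45, 9.75 and 9.47 in mock cells, at 9.32, 9.35, 9.31 and 9.17 after Rad21 RNAi and at 9.32, 9.26, 9.59 and 9.28 after Nipped-B RNAi. Its groups overlapped and its differences were -0.20 (adjusted p = 0.106) and -0.13 (adjusted p = 0.305), and both passed with the replicate block (adjusted p = 0.0175 and 0.0964). The first also passed with arrays centred on their median (adjusted p = 0.0887), without mock replicate 4 (0.0411) and without Nipped-B RNAi replicate 3 (0.0656) or 4 (0.0654), and the second without Nipped-B RNAi replicate 3 (adjusted p = 0.0986). GluRS-m, whose product in animal mitochondria is also the starting point for glutamine tRNA, was at 5.65, 5.83, 5.78 and 5.48 in mock cells, at 5.51, 5.20, 5.58 and 5.47 after Rad21 RNAi and at 5.61, 5.52, 5.58 and 5.24 after Nipped-B RNAi. Its groups overlapped, with differences of -0.24 (adjusted p = 0.155, with 0.0922 under the replicate block and 0.0859 without mock replicate 4) and -0.20 (adjusted p = 0.26).

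The remaining mitochondrial enzymes were not called in these contrasts. AsnRS-m was at 7.51, 7.72, 7.83 and 7.49 in mock cells, at 7.43, 7.49, 7.51 and 7.47 after Rad21 RNAi and at 7.45, 7.52, 7.52 and 7.40 after Nipped-B RNAi, with a difference of -0.16 in both (adjusted p = 0.208 and 0.221). Without mock replicate 4 it was -0.24 in both and passed (adjusted p = 0.0437 and 0.0499). TrpRS-m was at 8.80, 8.94, 8.84 and 8.82 in mock cells, at 8.70, 8.84, 8.81 and 8.74 after Rad21 RNAi and at 8.81, 8.87, 8.86 and 8.67 after Nipped-B RNAi. Its differences were -0.08 (95% interval -0.23 to 0.08) and -0.05 (95% interval -0.20 to 0.11). ArgRS-m lay between 7.21 and 7.67 over the 12 arrays, with differences of -0.12 and -0.03. AspRS-m, with a range of 10.59 to 10.84, had the values nearest to 0, -0.02 (95% interval -0.16 to 0.13) with Rad21 RNAi and 0.01 (95% interval -0.13 to 0.16) with Nipped-B RNAi. With all arrays and no block, these 4 and GluRS-m passed in none of the 12 contrasts fitted.

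Counted by the arrays alone, all 4 Rad21 RNAi arrays were below all 4 mock arrays for 14 of 18 cytosolic and 4 of 14 mitochondrial probe sets, where 15.2% of all tested probe sets had this. With Nipped-B RNAi the counts were 13 of 18 and 3 of 14, beside 9.77% of all tested. Against the mock array of the same number, 17 of 18 cytosolic probe sets were below mock in 4 of 4 pairs for each knockdown, and GlnRS in 3. Of the mitochondrial probe sets, 11 of 14 were below mock in 4 of 4 pairs with Rad21 RNAi and 9 of 14 with Nipped-B RNAi. Of all tested probe sets, 26.4% with Rad21 RNAi and 24.2% with Nipped-B RNAi were below mock in 4 of 4 pairs.

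For 11 amino acid tRNAs both a cytosolic and a mitochondrial enzyme were measured, with GluProRS standing for both glutamate and proline. In all 11 the cytosolic difference from mock, averaged over day 3 and the later days, was the more negative one with either knockdown. At days 4 and 6 alone this held in 10 of 11, and CysRS was at -0.36 against -0.48 for CysRS-m with Rad21 RNAi and at -0.36 against -0.38 with Nipped-B RNAi. The widest gap was that of tryptophan, with -0.87 for the brightest TrpRS probe set against -0.08 for TrpRS-m with Rad21 RNAi, and -0.65 against -0.05 with Nipped-B RNAi. Valine followed with -1.06 for ValRS against -0.36 for ValRS-m, and -0.89 against -0.33. The narrowest was that of cysteine, with -0.36 for CysRS against -0.29 for CysRS-m, and -0.30 against -0.22. Both enzymes were called for 6 amino acids with Rad21 RNAi and for 5 with Nipped-B RNAi, and only the cytosolic one for the other 5 and 6. The difference between the enzymes of a pair was not tested, and the pairs share the same arrays.

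**Figure D3:**
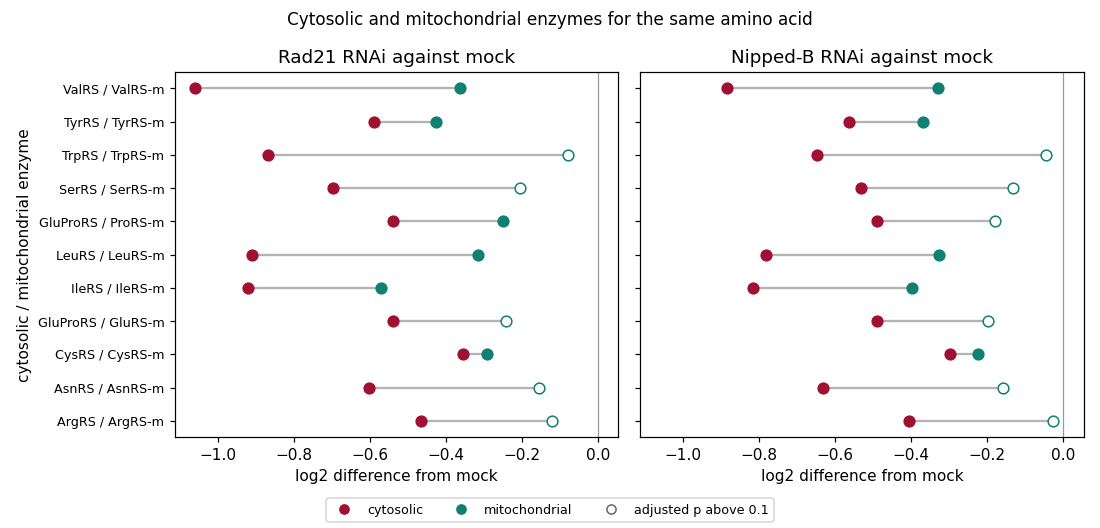
Log2 difference from mock, averaged over day 3 and the later days, of the cytosolic (red) and mitochondrial (green) enzyme for the same amino acid, with Rad21 RNAi (left) and Nipped-B RNAi (right); open points had an adjusted p above 0.1. The red point is to the left of the green one in all 11 pairs of both panels, by most for TrpRS and TrpRS-m and by least for CysRS and CysRS-m.

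Among the cytosolic enzymes both classes of fold were lowered. With 1 probe set per gene, all 8 cytosolic class I enzymes and all 7 cytosolic class II enzymes fell with each knockdown, GluProRS with both folds not counted. Of the mitochondrial enzymes, 6 of 9 class I members fell with each knockdown, and 2 of 5 class II members with Rad21 RNAi and 1 of 5 with Nipped-B RNAi. Of all tested probe sets 24.1% fell with Rad21 RNAi and 19.9% with Nipped-B RNAi. The mitochondrial class II count with Nipped-B RNAi, PheRS-m alone, was thus near the share of all tested. The medians of cytosolic class I and class II were -0.73 and -0.68 with Rad21 RNAi and -0.61 and -0.56 with Nipped-B RNAi. The mitochondrial medians were -0.32 and -0.20 with Rad21 RNAi and -0.25 and -0.16 with Nipped-B RNAi.

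By day, the cytosolic probe sets were already lower at day 3. The median cytosolic level after Rad21 RNAi was 62.7% and 66.2% of mock in the day 3 pairs, then 58.2% on day 4 and 68.4% on day 6. After Nipped-B RNAi the same medians were 76.6%, 70.5%, 61.3% and 61.1%. The mitochondrial medians were 89.3%, 82.8%, 76.8% and 89.9% with Rad21 RNAi and 97.1%, 87.2%, 82.2% and 84.9% with Nipped-B RNAi. In each of the 8 pairs the mitochondrial median was thus closer to mock than the cytosolic one.

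Within day 3 alone, with 2 arrays against 2, Rad21 RNAi lowered 18 of 18 cytosolic and 3 of 14 mitochondrial probe sets (PheRS-m, IleRS-m and LeuRS-m) and raised 0, where 15.8% of all tested fell and 14.9% rose. Within days 4 and 6 it lowered 17 and 8 and raised 0, where 20.0% of all tested fell and 21.5% rose. Nipped-B RNAi lowered 15 cytosolic and 1 mitochondrial probe set (PheRS-m) at day 3, beside 6.93% of all tested lower and 4.94% higher. At days 4 and 6 it lowered 17 and 7, beside 17.5% lower and 22.5% higher, and it raised 0 in either class. At days 4 and 6 GlnRS was the cytosolic exception for both, with differences of -0.06 (adjusted p = 0.715) and -0.11 (adjusted p = 0.456).

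Few synthetase transcripts were down by a factor of 2 on a given day. Of the 32, 2 and 1 were at least 2-fold below mock in the day 3 pairs of Rad21 RNAi, 7 at day 4 and 3 at day 6, beside 2.84%, 3.02%, 3.43% and 3.55% of all tested probe sets. With Nipped-B RNAi the counts were 0 and 0 at day 3, 3 at day 4 and 4 at day 6, beside 1.03%, 1.33%, 3.27% and 3.65%. These counts are of probe sets, and TrpRS has 3. They made up the 3 at day 6 of Rad21 RNAi and were among the 7 at its day 4. At day 6 of Nipped-B RNAi the 4 were those of TrpRS and ValRS.

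Whether the effect itself changed from day 3 to days 4 and 6 was tested as an interaction, in which day and amount of dsRNA cannot be told apart. No synthetase passed for either knockdown. For Rad21 RNAi 0.367% of all tested probe sets had a more positive and 0.871% a more negative effect late, and for Nipped-B RNAi these were 0.177% and 0.163%. At an unadjusted p under 0.05, 5 synthetase probe sets in the Rad21 contrast and 6 in the Nipped-B contrast had a more negative effect late and 0 a more positive one. The second and the brightest TrpRS probe set, PheRS-m, MetRS-m and CysRS-m were in both sets. Their changes were -0.49, -0.48, -0.35, -0.41 and -0.38 for Rad21 RNAi and -0.47, -0.52, -0.47, -0.46 and -0.31 for Nipped-B RNAi, and GluProRS changed by -0.34 with Nipped-B RNAi. The smallest adjusted p of these was 0.158. Both contrasts subtract the same change of mock cells with time, so these sets are not independent of each other. The share of all tested probe sets at this unadjusted cut is not given here.

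**Figure D4:**
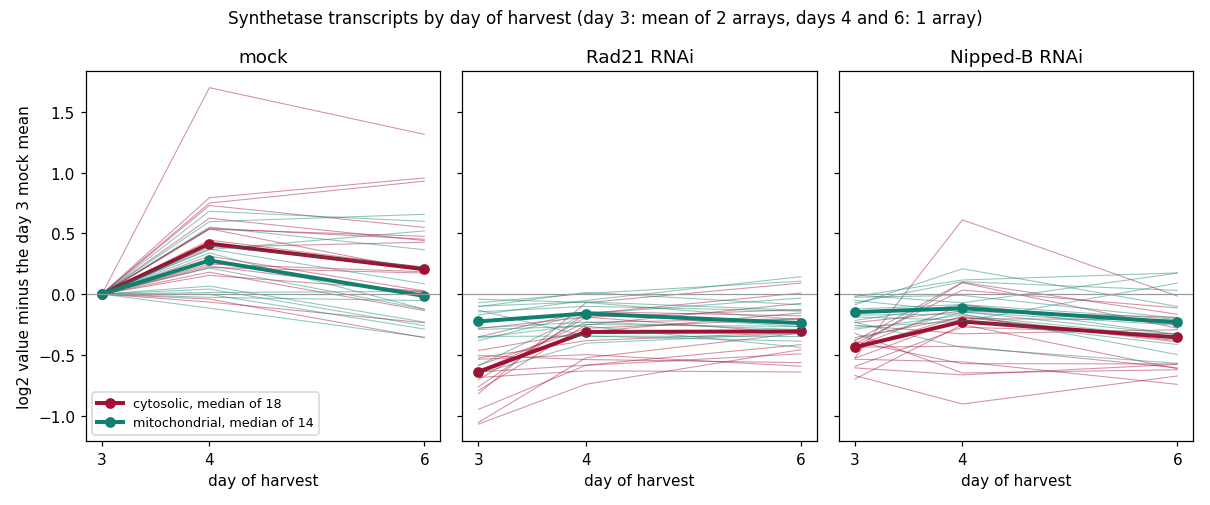
Log2 value minus the probe set's day 3 mock mean against the day of harvest, for mock, Rad21 RNAi and Nipped-B RNAi, with thin lines for single probe sets and thick lines for the medians of 18 cytosolic (red) and 14 mitochondrial (green) probe sets. The cytosolic median rose to +0.42 at day 4 and was +0.20 at day 6 in mock cells, and stayed below 0 at every day in both knockdowns.

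Mock cells themselves changed with time. From day 3 to days 4 and 6, 16 of the 32 synthetase probe sets rose, 11 cytosolic and 5 mitochondrial, and 0 fell (0 also at an unadjusted p under 0.05 in limma), where 14.4% of all tested probe sets rose and 20.8% fell. The median change was +0.35 for the cytosolic, +0.08 for the mitochondrial and -0.07 for all tested probe sets. The rise was led by TrpRS, with +1.51 (SE 0.30) on the dim, +0.87 (SE 0.11) on the brightest and +0.84 (SE 0.09) on the second probe set, as the mock values above show. PheRS-m rose by 0.64, ValRS by 0.64, MetRS-m by 0.63, SerRS by 0.53, and HisRS and ThrRS by 0.50 each. The smaller rises were those of IleRS-m (0.46), CysRS-m (0.44), TyrRS (0.41), AsnRS (0.36), LeuRS (0.33), TyrRS-m (0.31) and CysRS (0.20). This contrast sets 2 arrays against 2, and the count went from 16 to 9 without mock replicate 2 and to 10 without mock replicate 3.

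The cytosolic enzymes not called in mock cells over time were IleRS (+0.17), LysRS (+0.12), AlaRS (+0.09), GluProRS (+0.02), GlyRS (+0.21), ArgRS (-0.15) and GlnRS (-0.20). With the replicate block GlyRS (adjusted p = 0.0422) and SerRS-m (+0.23, adjusted p = 0.0563) were called higher and GlnRS lower (adjusted p = 0.0945). ArgRS, GlnRS, GluProRS, IleRS, LeuRS and LysRS are members of the multisynthetase complex in mammals. Of these 6 genes 1 rose in mock cells, LeuRS, near the share of 14.4% of all tested, and their median change was +0.07. The LeuRS call was lost in limma without the filter on low values (adjusted p = 0.15). Of the other 10 cytosolic genes 8 rose, with a median of +0.45. Under the knockdowns both groups fell in full, beside 24.1% of all tested with Rad21 RNAi and 19.9% with Nipped-B RNAi. Their medians were -0.63 and -0.65 for Rad21 RNAi and -0.57 and -0.56 for Nipped-B RNAi, the complex members first. This grouping was chosen after the values were seen, so it is a description with no test.

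Cells under knockdown also differed between day 3 and the later days. They had received 40 µg of dsRNA at day 3 and 10 µg later, so time and amount cannot be told apart here. After Rad21 RNAi 9 cytosolic probe sets and 1 mitochondrial one were higher at days 4 and 6 than at day 3, and 0 lower, where 4.41% of all tested rose and 5.1% fell. These were AsnRS (+0.69), ThrRS (+0.63), ValRS (+0.63), SerRS (+0.54), IleRS-m (+0.49), IleRS (+0.47), HisRS (+0.42), LeuRS (+0.41) and TrpRS on both brighter probe sets (+0.39 and +0.34). After Nipped-B RNAi both brighter TrpRS probe sets (+0.37 and +0.35) and ThrRS (+0.32) rose and GluProRS fell by 0.31, where 7.9% of all tested rose and 6.83% fell. Relative to mock at day 3, the cytosolic median stood at 64.1%, 80.5% and 80.8% at days 3, 4 and 6 of Rad21 RNAi and at 73.9%, 85.5% and 78.1% of Nipped-B RNAi.

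Set against each other, the knockdowns gave no called difference in any synthetase. Only 0.0408% of all tested probe sets were higher and 0.0544% lower with Rad21 than with Nipped-B RNAi. The Rad21 RNAi level was the lower one for 28 of the 32 probe sets, beside 4065 of all 7350 tested. The median difference was -0.07 beside -0.01 for all tested. The 32 probe sets share the same arrays, so their directions are not independent. At an unadjusted p under 0.05 there were 3, all lower with Rad21 RNAi, PheRS-m (-0.22, 95% interval -0.37 to -0.07), the brightest TrpRS probe set (-0.22, 95% interval -0.39 to -0.05) and the second (-0.19, 95% interval -0.33 to -0.05). Their adjusted p-values in limma were 0.482, 0.627 and 0.565. The share of all tested probe sets at the unadjusted cut is not given here.

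Genes that work beside the synthetases were described from lists of tRNA and translation genes. Of all tested probe sets 24.1% fell and 27.3% rose with Rad21 RNAi, and 19.9% fell and 24.4% rose with Nipped-B RNAi. The subunits of the cytosolic phenylalanine enzyme fell with both knockdowns, beta-PheRS by 0.56 and 0.45 and alpha-PheRS by 0.34 and 0.27 on the log2 scale. AIMP1 and AIMP2, whose mammalian counterparts hold the multisynthetase complex together, fell by 0.28 and 0.29 and by 0.34 and 0.28. Slimp, a mitochondrial relative of seryl-tRNA synthetase, fell by 0.38 and 0.44, and AIMP3 did not pass (-0.18 and -0.13). Thus 5 of these 6 relatives fell with each knockdown and 0 rose, with medians of -0.34 and -0.29.

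Of 5 tested tRNA modification genes 4 fell and 0 rose with each knockdown. They were the tRNA methyltransferase Nsun2 (-0.82 and -0.76), Elp3 (-0.62 and -0.53) and Elp2 (-0.50 and -0.45) of the Elongator complex, and Tgt (-0.52 and -0.46), which inserts queuosine. Of 4 tested tRNA processing genes 2 fell with Rad21 RNAi and 1 with Nipped-B RNAi, beside 24.1% and 19.9% of all tested. The processing count with Nipped-B RNAi was thus near the share of all tested. RNaseZ, which trims the tRNA 3′ end, fell by 0.60 with each, and Tsen54, a subunit of the splicing endonuclease, by 0.21 with Rad21 RNAi. GatA, a subunit of the amidotransferase that makes glutamine tRNA in mitochondria, fell by 0.32 with Rad21 RNAi, while GatA (-0.17) and GatB (-0.15) did not pass with Nipped-B RNAi.

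Mitochondrial translation factors use the tRNAs that the -m enzymes charge. Of 7 tested, 5 fell with Rad21 RNAi and 4 with Nipped-B RNAi, beside 24.1% and 19.9% of all tested, and 0 rose. The elongation factor mEFG1 fell by 1.05 and 0.90 and mEFTu1, which carries charged tRNA to the ribosome, by 0.59 and 0.58. The initiation factor mIF3 fell by 0.91 with Rad21 RNAi and was at -0.49 (adjusted p = 0.139) with Nipped-B RNAi. In the cytosol eEF1delta (-0.50 and -0.44) and eEF1gamma (-0.38 and -0.39), subunits of the complex that recharges the factor delivering aminoacyl-tRNA, fell, and eEF5 (-0.03 and -0.04) did not pass.

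The integrated stress response is the pathway by which cells answer amino acid starvation and uncharged tRNA. Of its genes 5 of 6 tested fell with each knockdown and 0 rose, beside 24.1% and 19.9% of all tested lower. AsnS, asparagine synthetase, fell by 0.69 and 0.31, the kinase PEK by 0.52 and 0.42, eIF2beta by 0.49 and 0.43, and PPP1R15 by 0.34 and 0.22. crc, the fly ATF4, fell by 0.22 and 0.20, and the kinase Gcn2, which senses uncharged tRNA, did not pass (-0.11 and -0.05). Of 6 tested growth regulators 0 fell and only mTor rose, by 0.26 and 0.30, while Max, Mnt, Dref, raptor and S6k did not pass. All tested probe sets rose in 27.3% with Rad21 RNAi and 24.4% with Nipped-B RNAi, so this count did not exceed that share.

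Some markers of other cell types moved with the treatment. The haemocyte gene eater fell by 2.25 and 1.74 averaged over the times. Its differences were -0.82 and -0.60 at day 3, which did not pass (adjusted p = 0.199 and 0.465), and -3.69 and -2.88 at days 4 and 6, where the knockdown arrays read 2.50 to 3.89, close to background. The haemocyte gene srp rose by 0.48 and 0.43. Of the 3 glial markers tested only nrv2 passed, rising by 0.50 and 0.48, while repo and moody did not pass. Among all tested probe sets 27.3% and 24.4% rose. The median of the 3 glial markers was -0.03 with each knockdown. The log2 of the summed level of the 4 haemocyte markers was 12.5 to 13.1 in mock cells, 13.1 to 13.5 after Rad21 RNAi and 13.0 to 13.5 after Nipped-B RNAi. That of the 4 glial markers was 13.4 to 13.7, 13.6 to 13.7 and 13.5 to 13.9, and that of the 4 neuronal markers was 7.9 to 9.2, 8.8 to 9.3 and 8.3 to 9.5. The 5 neuroblast markers summed to 5.1 to 5.8, 5.1 to 5.8 and 5.4 to 5.9. In the same order, srp alone was at 12.5 to 13.1, 13.1 to 13.5 and 13.0 to 13.5. The haemocyte sum is therefore close to srp alone and does not show the fall of eater. The neuronal sum is close to elav alone, at 7.8 to 9.1, 8.7 to 9.3 and 8.2 to 9.4. Of the 5 neuroblast markers only mira reached log2 4 on any array, and its values were near that limit. Averaged over the times it did not pass (+0.10 and +0.54). At days 4 and 6 it was called higher with Nipped-B RNAi (+1.08) and did not pass with Rad21 RNAi (+0.27). In mock cells it was called lower at days 4 and 6 than at day 3 (-1.24). The part of these markers in the synthetase results was not tested.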

How the data were processed

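Total RNA was hybridised to Affymetrix Drosophila arrays, 1 array per sample. The deposited log2 expression values come from the authors, who summarised the probe intensities with GCRMA (version not given in the sources used here). Of 18952 probe sets 183 controls were left out. Genes were named by the array annotation and updated through a RefSeq table of the Release 6 assembly, so that 13647 probe sets name 1 gene, 402 several and 4720 none. Between 7199 and 7261 probe sets reached log2 4 per array.

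R 4.3.3 with limma 3.58.1 (a fit of 6 means, 3 treatments in 2 time classes, and eBayes with trend) was fitted on the 7350 tested probe sets, after a test on simulated data. The factors and the threshold of 0.1 are those of the study's 2-way analysis of variance. Figures were drawn with matplotlib 3.10.9, and tables made with pandas 2.3.3, scipy 1.17.1 and numpy 2.4.6 in Python 3.11.15. The samples are labelled biological replicates, and p-values measure only the spread between arrays of the same treatment and time class. In the later class this spread includes the difference between day 4 and day 6.

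The replicate numbers mark a shared day of harvest, and same-numbered arrays deviated together (r of 0.364 to 0.658 from the treatment and time class means), so the numbers pair the arrays, and the fit with a replicate block was run beside the main one. The other alternatives were 2 filters on low values, no variance trend, no time class, median-centred arrays, a floor at log2 4, a threshold of 0.05, and each array left out. The time classes alone and 1 probe set per gene were added after seeing the data.

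Members and lists were chosen with earlier results of these data known, and symbols of 5 listed genes were updated after values could be seen. Per-array values are given for the 6 called members with the largest difference for each knockdown and up to 4 in each other contrast. They are also given for the paired enzymes of the same amino acids other than arginine, cysteine and tyrosine. GlnRS was added after its values were seen. Up to 4 genes per list are named by size, and others where a list is short.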

Additional observations from a re-analysis of the deposited data

Results flagged for a closer look

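Dixon's test was applied to the 96 groups of 4 arrays formed by the 32 synthetase probe sets and the 3 treatments, and chance flags about 1 in 20 such groups. It flagged 5. GlnRS in mock replicate 4, at day 6, was at 10.23, below the other mock arrays at 10.55 to 10.62. IleRS in mock replicate 3, at day 4, was at 11.46, above the others at 11.13 to 11.17. LysRS in the same mock array was at 11.11, above the others at 10.87 to 10.90. LysRS in Rad21 RNAi replicate 2 was at 10.15, below the others at 10.24 to 10.25. ProRS-m in Nipped-B RNAi replicate 4, at day 6, was at 7.86, below the others at 8.06 to 8.09.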

How the results depend on the processing

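Over 19 alternatives (18 for the time contrast), 17 of 18 cytosolic and 6 of 8 mitochondrial calls with Rad21 RNAi were kept in every one, 16 of 18 and 3 of 7 with Nipped-B RNAi, and 6 of 11 and 3 of 5 of the rises in mock cells. Within day 3 alone the count of mitochondrial enzymes called lower was 3 with Rad21 RNAi and 1 with Nipped-B RNAi, and that of all members called lower with Nipped-B RNAi was 16, on 2 arrays against 2. Without the time class the mitochondrial count with Nipped-B RNAi was 4, and without the filter the mitochondrial rises in mock cells numbered 3. The cause of these shifts was not tested.

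The replicate block takes same-numbered arrays together. It called 28 members lower with Rad21 RNAi (18 cytosolic, 10 mitochondrial) and 27 with Nipped-B RNAi (18 and 9). It also called 18 higher in mock cells over time (12 and 6). It called 1 member lower in mock cells over time and 1 with a more negative Rad21 effect late, both 0 without it. It ended no synthetase call in the knockdown contrasts averaged over the times or in mock cells over time. Calls on single probe sets in the other contrasts, and on listed genes and markers, were not compared under it.

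With each array left out in turn, the members called lower ranged from 24 to 29 with Rad21 RNAi (17 to 18 cytosolic, 7 to 11 mitochondrial) and from 23 to 27 with Nipped-B RNAi (17 to 18 and 6 to 9). Those called higher in mock cells ranged from 9 to 17 (6 to 12 and 3 to 6) and those lower from 0 to 2. The mock counts were 9 (6 and 3) without mock replicate 2 and 10 (7 and 3) without mock replicate 3, with 2 lower, and 3 mitochondrial without mock replicate 1. The members with a changed Rad21 effect late numbered 0 to 2 in the positive and 0 to 3 in the negative direction, and those with a more negative Nipped-B effect 0 to 1, the highest of each without mock replicate 3. Counts of 1 more negative effect also came without Nipped-B RNAi replicates 3 and 4 for Rad21 and without Nipped-B RNAi replicate 3 for Nipped-B.

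Uncalled differences near 0 changed sign. With single arrays left out, AspRS-m ranged from -0.0423 to 0.00853 with Rad21 RNAi and from -0.0485 to 0.0737 with Nipped-B RNAi, ArgRS-m from -0.0874 to 0.0318 and TrpRS-m from -0.0923 to 0.00149 with Nipped-B RNAi. In mock cells over time GluProRS ranged from -0.136 to 0.180, AsnRS-m from -0.125 to 0.215, AspRS-m from -0.0169 to 0.0525, GluRS-m from -0.261 to 0.0412, LeuRS-m from -0.231 to 0.0658, TrpRS-m from -0.110 to 0.0300 and ValRS-m from -0.124 to 0.338, the last called higher without mock replicate 4 (adjusted p = 0.0899). TrpRS-m over time was also at 0.0100 with arrays centred on the median. Day 4 and day 6 have 1 array per treatment, so their values carry no error of their own, and transcript levels near log2 4, as for the dim TrpRS probe set, sit close to the background of these arrays.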
